A study of Mus musculus with 12 samples.

Results

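The 10 genes described here encode ligands and receptors of the TGF-β and activin pathway, with a feedback inhibitor and a matrix target of the same pathway. They were taken by gene symbol from the 48321 genes listed in the RNAseq table, where Tgfb1, Tgfb2, Tgfb3, Inhba, Inhbb, Tgfbr1, Tgfbr2, Tgfbr3, Smad7 and Tgfbi each had a row, and all 10 passed the filter on low values. RNA was measured in immortalized murine adipocytes differentiated from wild-type preadipocytes of interscapular brown fat. The series names C57BL/6J mice as their origin and the methods 1 newborn mouse, so all 12 libraries may trace back to 1 animal. Every cell had been immortalized with SV40 and stably transduced with a lentivirus made from pLEX, either empty (vector) or carrying tSema4B, a truncated and Flag-tagged Sema4B that stands for the ectodomain ADAM17 releases. After selection with puromycin, both lines were differentiated over 8 days, first in a medium with dexamethasone, IBMX, rosiglitazone, insulin and T3 and later in one with only insulin and T3 of these, and were then kept in serum-free medium for 6 h without stimulation or with 2 μM norepinephrine (NE). This gave 4 groups of 3 libraries, named vector or tSema4B, and unstimulated or NE. The series calls the 3 libraries of a group technical replicates and does not say whether they came from separate cultures, so the adjusted p-values cover only the spread between these libraries. One transduced line stood for each construct, so whatever differed between the constructs also differed between 2 lines.

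TGF-β ligands are secreted in a latent form, bound to their propeptide and often to a latent TGF-β binding protein, and have to be released before they can signal. Active TGF-β brings together the type II receptor (Tgfbr2) and the type I receptor (Tgfbr1), which phosphorylate SMAD2 and SMAD3, while activins, dimers of the inhibin β chains encoded by Inhba and Inhbb, signal to the same SMADs through the activin receptors. In fat, this pathway is known for holding back the differentiation of preadipocytes and for matrix production. The comparisons ask whether tSema4B and NE, given alone and together, changed the RNA of these genes.

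The libraries held 2000780 to 5409583 reads on genes, and the vector NE libraries were the deepest (4739777 to 5409583). Sema4b, the targeted gene, was at 110786 to 124008 normalized counts in vector unstimulated and 258257 to 316850 in tSema4B unstimulated libraries, so its RNA was higher in the line that carries the construct (log2 fold change 1.27, SE 0.0884, limma adjusted p = 9.45e-10). With NE it was at 65472.5 to 81753.8 in vector and 208760 to 270694 in tSema4B libraries (1.65, adjusted p = 1.21e-11), having fallen by 0.66 in vector cells (adjusted p = 2.86e-05). In tSema4B cells the NE difference of -0.27 did not pass (adjusted p = 0.076). In vector unstimulated libraries it took 3.58% to 4.02% of all normalized counts, in tSema4B unstimulated libraries 8.53% to 10.2%. After NE the share was 2.04% to 2.57% in vector and 7.01% to 8.88% in tSema4B libraries. Sema4b RNA was thus abundant in the empty vector line too, and its source there was not tested. The summed level of 8 adipocyte markers lay between 40549.8 and 46315 in vector unstimulated, 6730.5 and 9533 in tSema4B unstimulated, 53743 and 65373 in vector NE, and 10668 and 12085 in tSema4B NE libraries. The summed level of 12 preadipocyte and fibroblast markers lay between 16796 and 17428, 31517 and 35834, 13908 and 15993, and 29576 and 31417 in the same order of groups. The 6 brown adipocyte markers summed to 219 to 264, 53.6 to 71.2, 440.1 to 449 and 105 to 134 in that order. Ucp1, Cidea and Adrb3, 3 of the 5 tested, were lower in tSema4B with and without NE, and Ucp1 rose after NE in both lines, though Dio2 had no read in any library and Ucp1 had 3 reads or fewer in each tSema4B unstimulated library. Adgre1 and Ptprc (macrophages), Kdr (endothelium) and Myog, Myod1 and Ckm (skeletal muscle) had no read in any library. Markers of these cell types were low in sum but not silent. The 6 macrophage markers summed to 3.36 to 7.60 normalized counts in vector unstimulated, 0 to 5.48 in tSema4B unstimulated, 13.4 to 23.6 in vector NE and 9.65 to 24.6 in tSema4B NE libraries, and Csf1r, the 1 of them tested, rose after NE in both lines. The 5 endothelial markers summed to 4.34 to 10.9, 13.1 to 21.9, 5.24 to 13.0 and 12.9 to 17.2 in the same order, and the 1 tested did not pass in any comparison. The 5 skeletal muscle markers summed to 31.5 to 41.4, 15.5 to 38.7, 34.0 to 41.0 and 4.29 to 17.99, and Acta1 was lower in tSema4B with and without NE.

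Per kb of exon, the co-receptor gene led this family and Tgfb3 led its ligands. In vector unstimulated cells the level per kb of exon was highest for Tgfbr3, at 77.7 ± 11.1 normalized counts per kb (SD, n = 3), and its libraries did not overlap those of the next gene. Tgfb3 (39.8), Tgfbr2 (38.6) and Tgfbr1 (38.5) followed with overlapping libraries, then Tgfbi and Tgfb2 (both 15.9), which also overlapped each other. Inhbb (6.94) and Inhba (3.05) stood apart from their neighbours in this order, and Tgfb1 (2.27) and Smad7 (2.25) overlapped at the bottom. Tgfb1, the isoform best known from studies of fibrosis, was thus the least abundant of the TGF-β ligand genes here. Before division by exon length it was lowest too, at 11.5 normalized counts on average beside 91.8 for Tgfb2 and 134.5 for Tgfb3. It had 3 to 15 reads in a library, and a modest change in it would not be detectable at this depth. The order per kb depends on exon length, which counts all annotated exons of a gene. Smad7 had 6 to 34 reads and Inhba 17 to 54, while Tgfb2 had 66 to 215 and Tgfbr3 368 to 1104.

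**Figure D1:**
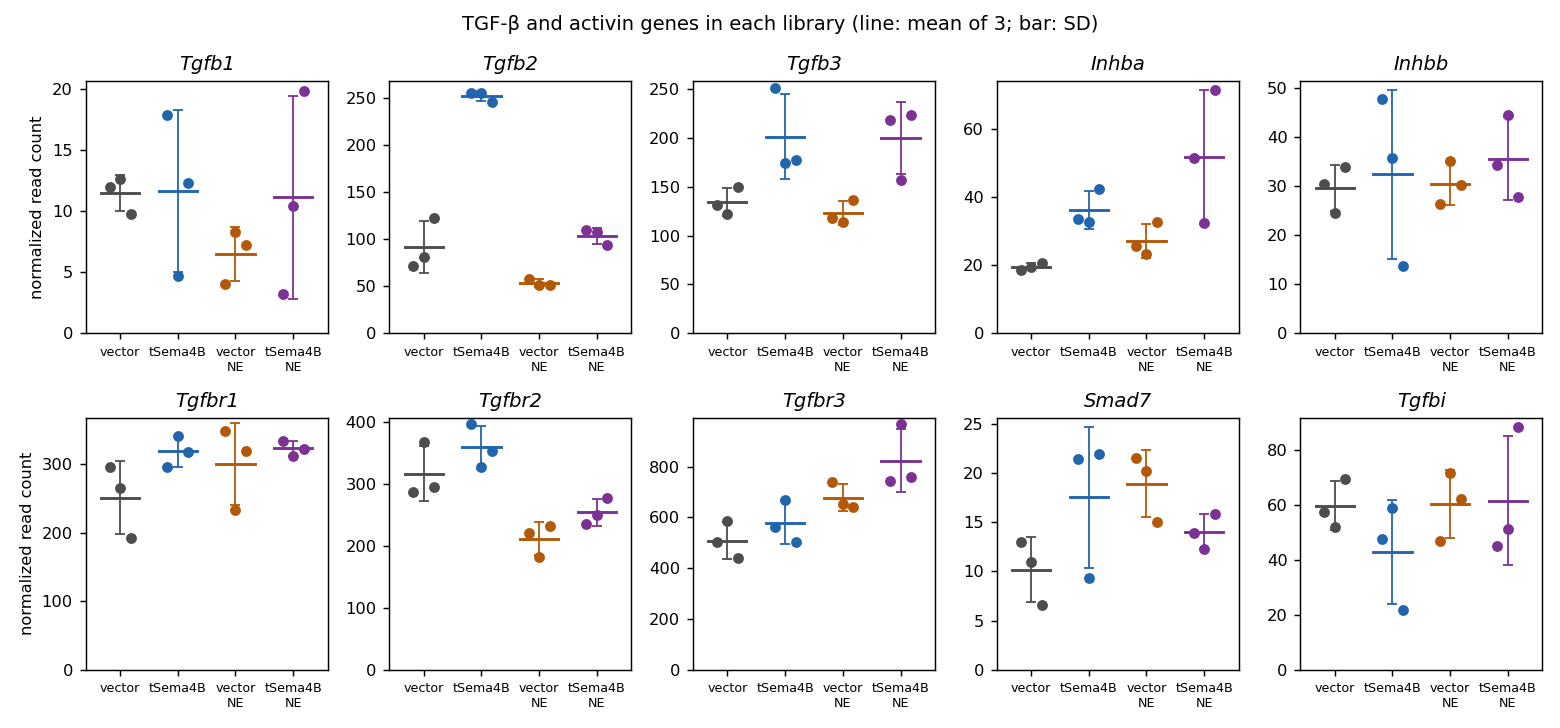
Normalized read counts (linear axes starting at 0) of the 10 TGF-β and activin genes in the 12 libraries, with 1 point for each library, a line at the mean of 3 and a bar for the SD, by group (vector and tSema4B, unstimulated or with NE). The tSema4B unstimulated libraries of Tgfb2 sit between 246 and 256, above every other library.

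The strongest difference between the lines was in Tgfb2, and Tgfb3 was also higher in tSema4B cells, with and without NE. Of the 10 genes, 2 rose and 0 fell in tSema4B against vector without stimulation, where 5.64% of the 11998 genes tested passed as higher and 7.39% as lower (limma with adjusted p up to 0.05), and the median log2 fold change was 0.27 over the 10 genes and -0.0025 over all genes tested. After NE again 2 rose and 0 fell, against 9.79% higher and 11.2% lower among all genes tested (1175 and 1342 genes, or 1650 and 1026 with libraries rescaled to the same total), with medians of 0.27 and -0.010. With 2 of 10 genes set against these shares, the counts are not read as a result about the family, and the single genes follow. When a log2 fold change of 1 or more in either direction was asked for as well, 1 of the 10 genes (Tgfb2) passed without stimulation, where 3.82% of genes did, and 0 passed after NE, where 5.76% did.

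Tgfb2, which encodes the TGF-β2 ligand (ENSMUSG00000039239.14, GRCm38 chromosome 1, 186622792 to 186705989, minus strand), had 71.7, 80.7 and 123 normalized counts in the 3 vector unstimulated libraries and 256, 255 and 246 in the tSema4B unstimulated libraries. Every tSema4B library was above every vector library, and the tSema4B libraries lay close together (252.6 ± 5.40, SD, n = 3, against 91.8 ± 27.4). The difference was 1.49 on the log2(normalized count + 1) scale on which all log2 fold changes are given here (SE 0.199, limma adjusted p = 1.3e-05), a fold of 2.81. After NE, Tgfb2 had 57.8, 51.0 and 51.1 normalized counts in vector and 109, 108 and 93.8 in tSema4B libraries, which did not overlap either, and the difference was 0.95 (SE 0.199, adjusted p = 0.00154), a fold of 1.93. Both differences passed the test in all 16 alternative analyses, with log2 fold changes of 1.33 to 1.72 and 0.84 to 1.04. The adipocyte markers were lower and the preadipocyte markers higher in the same libraries, by the sums given above, and all 8 adipocyte markers fell in both comparisons, while 8 (unstimulated) and 9 (NE) of the 10 tested preadipocyte markers rose. Of the 4 contractile markers tested, 1 was higher in tSema4B without stimulation (Myl9) and 1 lower after NE (Tagln). The part of all these markers in the difference of Tgfb2 was not tested, and in bulk RNA fewer cells of a type and less RNA per cell cannot be told apart.

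Tgfb3, the third TGF-β ligand gene (ENSMUSG00000021253.7, chromosome 12, 86056745 to 86079041, minus strand), had 131, 122 and 150 normalized counts in vector unstimulated and 251, 175 and 178 in tSema4B unstimulated libraries. The groups did not overlap, and 1 tSema4B library was well above the other two. The log2 fold change was 0.56 (SE 0.180, adjusted p = 0.0407), and this call was lost without vector unstimulated replicate 1 (adjusted p = 0.11), without vector unstimulated replicate 2 (0.149), without tSema4B unstimulated replicate 1 (0.202), with no filter (0.0697) and in a fit of only the 2 groups compared (0.0534). After NE the values were 118, 114 and 137 in vector and 219, 157 and 223 in tSema4B libraries, again without overlap. This difference of 0.68 (SE 0.180, adjusted p = 0.00909) passed in all 16 alternatives. Exons of Tgfb2 and Tgfb3 share 124 and 420 bases with annotated antisense genes, and SMART-Seq2 cDNA does not mark strand. The antisense genes Gm29491 (Tgfb2) and Gm37804 (Tgfb3) had at most 1.07 and 1.32 normalized counts in any library, and Gm48008 (Tgfb3) was not listed. How reads on the shared bases were assigned is not given, so these counts cannot show whether the overlap affected Tgfb2 or Tgfb3.

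Tgfb1 did not pass the test in either comparison of the lines. It had 11.9, 12.6 and 9.80 normalized counts in vector unstimulated, 17.9, 4.64 and 12.3 in tSema4B unstimulated, 4.03, 8.30 and 7.20 in vector NE and 3.22, 10.4 and 19.8 in tSema4B NE libraries. The tSema4B libraries spread across the whole range of the vector libraries, and the 95% interval of the log2 difference between the lines reached from -1.44 to 1.16 without stimulation and from -0.84 to 1.76 after NE.

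Tgfb2 took a larger share of the TGF-β ligand RNA in tSema4B cells without stimulation. Tgfb2 made up 27.0% ± 4.18 of the summed level per kb of Tgfb1, Tgfb2 and Tgfb3 in vector unstimulated libraries (SD, n = 3) and 41.8% ± 4.93 in tSema4B unstimulated libraries, with lowest and highest libraries of 23.1% and 31.4% against 36.2% and 45.6%. After NE its share was 19.7% ± 2.22 in vector and 23.0% ± 4.50 in tSema4B libraries, which overlapped. Tgfb3 held the largest share in every group, between 56.1% and 77.5% on average, and Tgfb1 held 2.12% to 4.02%. These shares depend on the annotated exon length of each gene. They are a description, and no test was run on them.

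**Figure D2:**
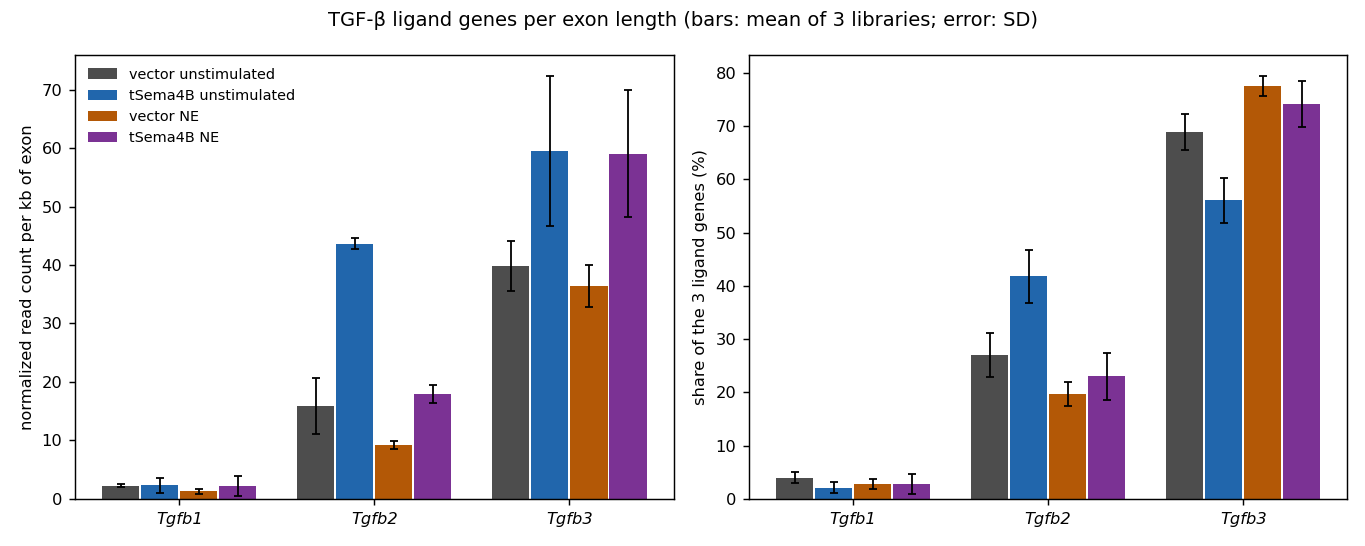
Normalized read count per kb of exon (left) and share of the summed level per kb (right, in %) of the TGF-β ligand genes Tgfb1, Tgfb2 and Tgfb3, with bars from 0 for the mean of 3 libraries and error bars for the SD, by group. Tgfb3 has the tallest bars in each group, and Tgfb2 rises from 27.0% to 41.8% of the sum between the unstimulated lines.

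Of the activin chains, Inhba, which encodes the βA chain of activin A, had 18.5, 19.3 and 20.7 normalized counts in vector unstimulated and 33.4, 32.5 and 42.4 in tSema4B unstimulated libraries. The groups did not overlap, but with 17 to 31 reads in a library the difference of 0.85 (SE 0.334, 95% interval 0.15 to 1.54) did not pass the test (adjusted p = 0.102). After NE the values were 25.5, 23.1 and 32.7 in vector and 51.5, 32.2 and 71.4 in tSema4B libraries, and the groups overlapped by a narrow margin. The difference was again 0.85 (SE 0.334), with an adjusted p of 0.0757, and over the alternatives its adjusted p ran from 0.0271 to 0.297. It passed with edgeR (0.048), with DESeq2 (0.0399), with libraries rescaled to the same total (0.0459) and without tSema4B NE replicate 2 (0.0271). Inhbb, which encodes the βB chain, had 24.4 to 33.8 normalized counts in vector unstimulated and 13.7 to 47.7 in tSema4B unstimulated libraries, and 26.2 to 35.0 and 27.7 to 44.5 after NE. Its groups overlapped in both comparisons and neither passed the test (adjusted p = 0.975 and 0.763).

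The receptor genes were closer between the lines than Tgfb2 was. Tgfbr1, the type I receptor, had 296, 265 and 193 normalized counts in vector unstimulated and 297, 342 and 318 in tSema4B unstimulated libraries. The tSema4B libraries were all higher, though 1 of them by less than 1 normalized count, and the difference of 0.36 (95% interval 0.035 to 0.69) did not pass (adjusted p = 0.141); it was 0.18 without vector unstimulated replicate 3 and 0.49 without vector unstimulated replicate 1. After NE, Tgfbr1 overlapped between the lines (234 to 348 against 312 to 335). Tgfbr2, the type II receptor, differed by 0.18 without stimulation (95% interval -0.10 to 0.47, adjusted p = 0.436) and 0.27 after NE (-0.019 to 0.56, adjusted p = 0.183). Tgfbr3, or betaglycan, a co-receptor that presents TGF-β2 to the type II receptor, differed by 0.19 (-0.076 to 0.45, adjusted p = 0.38) and 0.27 (0.0076 to 0.54, adjusted p = 0.14), and with libraries rescaled to the same total its difference after NE passed (adjusted p = 0.0434). With single libraries left out or other settings, the differences without stimulation and after NE ran from 0.11 to 0.30 and 0.17 to 0.36 for Tgfbr2, and from 0.078 to 0.29 and 0.15 to 0.37 for Tgfbr3. The extremes came without tSema4B unstimulated replicate 1 and vector unstimulated replicate 2 for Tgfbr2 and without tSema4B unstimulated replicate 2 and vector unstimulated replicate 2 for Tgfbr3, before NE. The 95% intervals leave room for a moderate difference in each receptor gene.

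The feedback inhibitor and the matrix target did not pass the test between the lines. Smad7, whose protein blocks receptor signalling and which TGF-β itself induces, had 13.0, 10.9 and 6.53 normalized counts in vector unstimulated and 21.5, 9.28 and 21.9 in tSema4B unstimulated libraries, and the groups overlapped (adjusted p = 0.374). After NE it had 15.1 to 21.5 in vector and 12.3 to 15.9 in tSema4B libraries (adjusted p = 0.595). Tgfbi, a secreted matrix protein induced by TGF-β, had 52.1 to 69.7 in vector unstimulated and 21.9 to 58.8 in tSema4B unstimulated libraries (adjusted p = 0.29), and 47.0 to 71.7 against 45.0 to 88.5 after NE (adjusted p = 0.985).

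**Figure D3:**
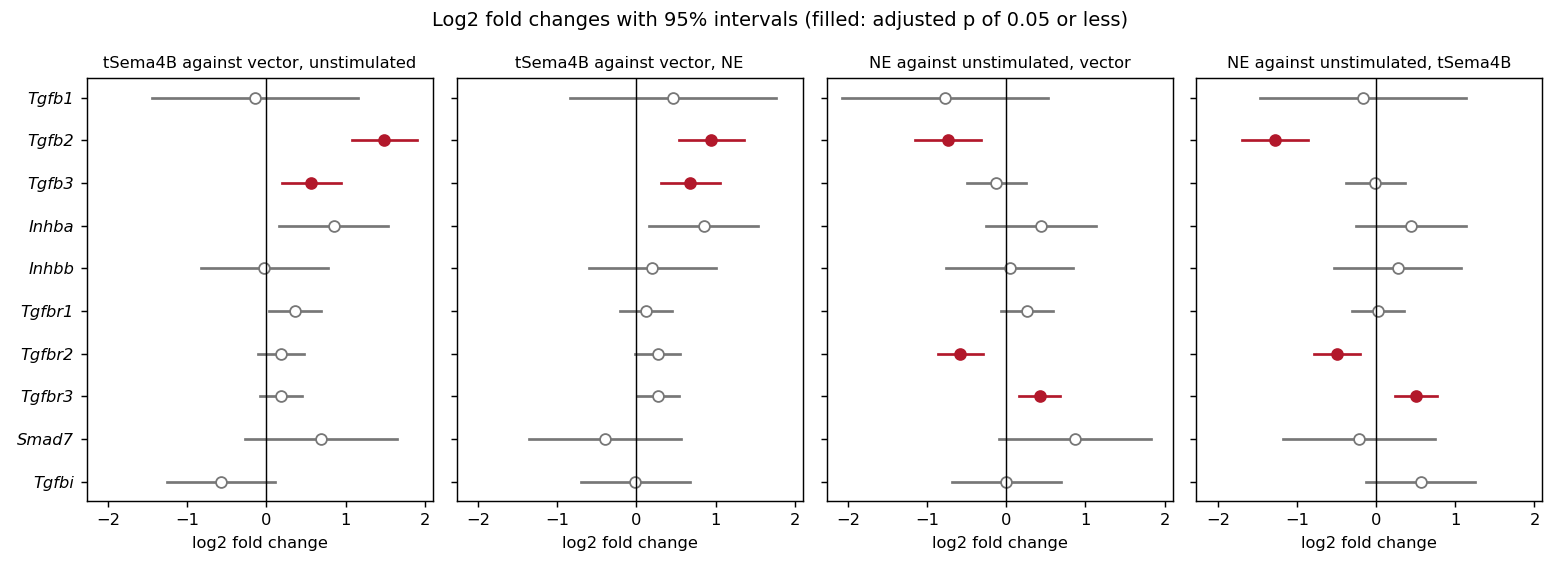
Log2 fold changes of the 10 genes, in rows, in the 4 comparisons of 2 groups, in panels, with 95% intervals of the limma fit before adjustment, where filled red points passed an adjusted p of 0.05 and open grey points did not. Tgfb2 lies at 1.49 and 0.95 in the panels of tSema4B against vector and at -0.74 and -1.28 in the panels of NE.

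Genes of a ligand and of receptors changed after NE, in the same direction in both lines. Tgfb2 and Tgfbr2 fell and Tgfbr3 rose in vector cells and in tSema4B cells, while the other 7 genes did not pass in either. In vector cells 1 of the 10 genes rose and 2 fell, where 6.82% of genes tested were higher and 4.78% lower (818 and 574 genes, or 689 and 710 with libraries rescaled to the same total). In tSema4B cells 1 rose and 2 fell, where 3.68% were higher and 2.58% lower. With that second condition, 0 of the 10 passed in vector cells (2.63% of all genes) and 1, Tgfb2, in tSema4B cells (2.07%). The median log2 fold change of the 10 genes was 0.023 in vector and 0.0063 in tSema4B cells, beside -0.019 and -0.0048 over all genes tested.

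Tgfb2 had 71.7, 80.7 and 123 normalized counts in vector unstimulated and 57.8, 51.0 and 51.1 in vector NE libraries, without overlap. It fell by 0.74 on the log2 scale (SE 0.199, adjusted p = 0.0176), a fold of 1.67, and this call was lost without vector unstimulated replicate 3 (adjusted p = 0.133), the library with the highest value, and without vector NE replicate 2 (0.06) or 3 (0.0677). In tSema4B cells it went from 256, 255 and 246 to 109, 108 and 93.8, again without overlap, and fell by 1.28 (SE 0.199, adjusted p = 0.000253), a fold of 2.43. That call held in all 16 alternatives, with log2 fold changes of -1.32 to -1.21. The tSema4B NE libraries thus had about the Tgfb2 level of the vector unstimulated libraries (93.8 to 109 beside 71.7 to 123), values that overlap and were not tested against each other.

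Tgfbr2 (ENSMUSG00000032440.13, chromosome 9, 116084293 to 116175360, minus strand) had 287, 367 and 295 normalized counts in vector unstimulated and 220, 182 and 232 in vector NE libraries, without overlap. It fell by 0.58 (SE 0.138, adjusted p = 0.00809), a fold of 1.49, and the call was lost without vector unstimulated replicate 2 (adjusted p = 0.0637) and without vector NE replicate 2 (0.0572). In tSema4B cells it went from 396, 326 and 353 to 235, 250.0 and 277, also without overlap, and fell by 0.49 (SE 0.138, adjusted p = 0.0343). This second call was lost in 6 of 16 alternatives, namely with no filter, with only the 2 groups fitted, and without tSema4B unstimulated replicate 1 or 3 or tSema4B NE replicate 1 or 2, with adjusted p of 0.0603 to 0.133.

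Tgfbr3 (ENSMUSG00000029287.14, chromosome 5, 107106570 to 107289629, minus strand) had 502, 584 and 439 normalized counts in vector unstimulated and 738, 654 and 640 in vector NE libraries, without overlap. It rose by 0.42 (SE 0.127, adjusted p = 0.0333), a fold of 1.34, and 8 of 16 alternatives lost the call, 5 of them with 1 library left out (vector unstimulated replicate 1 or 3, or any vector NE replicate) and the others with no filter, libraries rescaled to the same total or quantile normalization, with adjusted p up to 0.174. In tSema4B cells the values went from 564, 670 and 504 to 742, 966 and 760. The groups did not overlap, and Tgfbr3 rose by 0.50 (SE 0.127, adjusted p = 0.0178), a fold of 1.42, a call lost in the fit of only the 2 groups compared (0.0535) and without tSema4B unstimulated replicate 1 (0.0566) or 3 (0.0894) or tSema4B NE replicate 2 (0.107). Tgfbr3 shares 297 exon bases with Gm43422 on the same strand, which had at most 7.62 normalized counts in any library. For the same reason this count cannot show whether the overlap affected Tgfbr3, as the assignment of reads on shared bases is not given.

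Markers also moved with NE, and so did depth in the vector line. The vector NE libraries were the deepest of the study. In tSema4B cells the reads on genes overlapped, at 2000780 to 2541747 without stimulation and 2307190 to 3144946 with NE. The summed adipocyte markers were higher and the summed preadipocyte markers lower after NE in both lines, without overlap of the sums, but the single markers were mixed. Of 8 adipocyte markers 1 rose (Fabp4) and 2 fell (Plin1, Pparg) in vector cells, and 3 rose (Fabp4, Lpl, Cidec) and 0 fell in tSema4B cells. Of the 5 brown adipocyte markers tested, 1 rose (Ucp1) and 0 fell in each line. Of 10 tested preadipocyte markers 4 fell (Pdgfrb, Dlk1, Cd34, Col1a1) and 1 rose (Ly6a) in each line. The 5 contractile markers summed to 927 to 1439 normalized counts in vector unstimulated and 734 to 967 in vector NE libraries, and to 1358 to 1502 and 597 to 951 in tSema4B libraries. Of the 4 tested, 2 fell in vector cells (Acta2, Myl9) and 3 in tSema4B cells (Acta2, Tagln, Myl9). The part of these in the NE differences was not tested.

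Tgfb3 had 122 to 150 normalized counts in vector unstimulated and 114 to 137 in vector NE libraries, and 175 to 251 and 157 to 223 in tSema4B libraries. Its groups overlapped within each line, so that of the ligand genes that differed between the lines Tgfb2 passed the test of NE and Tgfb3 did not (adjusted p = 0.74 and 0.987), a contrast between the genes that was not itself tested. Smad7 had 6.53 to 13.0 in vector unstimulated and 15.1 to 21.5 in vector NE libraries, which did not overlap, but on 6 to 34 reads the difference of 0.87 (SE 0.462, 95% interval -0.092 to 1.82) did not pass (adjusted p = 0.265). Inhba differed by 0.44 in each line (SE 0.334, adjusted p = 0.462 and 0.505), and over the alternatives from 0.30 to 0.55 in vector cells and, in tSema4B cells, from 0.18 without tSema4B NE replicate 3 to 0.74 without tSema4B NE replicate 2. Tgfbr1 (adjusted p = 0.344 and 0.964), Tgfbi (0.999 and 0.363), Inhbb (0.964 and 0.763) and Tgfb1 (0.504 and 0.925) did not pass in vector or tSema4B cells.

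Because the 4 comparisons share libraries, the response to NE was also compared between the lines by an interaction term. Of the 10 genes 0 passed with limma, 0 had an unadjusted p under 0.05, and 0 passed with edgeR, where 0.025% of all genes tested passed with limma (3 of 11998). DESeq2 gave an adjusted p for 3 of the 10 genes, of which 0 passed, and called 101 of the 3857 genes for which it gave one. For Tgfb2 the interaction was -0.54 (SE 0.281, 95% interval -1.13 to 0.042, adjusted p = 0.534), so the larger fall in tSema4B cells is not shown to differ from that in vector cells. For Smad7 it was -1.09 (SE 0.653, 95% interval -2.44 to 0.27, adjusted p = 0.61), an interval too wide to place its direction. The intervals of Tgfbr2 (-0.32 to 0.49) and Tgfbr3 (-0.29 to 0.46) span 0 and leave room for moderate differences in either direction.

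The promoters of the genes that fell after NE in both lines are shown because NE signals through cAMP, and the factor CREB binds the cAMP response element, whose half-site reads TGACG (or CGTCA on the other strand). SMAD3 and SMAD4 are known to bind the SMAD box, CAGAC (or GTCTG). RefSeq promoters of the GRCm38.p6 build matched 7 of the 10 genes, in 8 entries, and none was matched for Tgfb3, Tgfbr3 or Smad7. The 250 bases before the annotated start are printed from 5′ to 3′ on the strand of the gene, with matches to either motif in capitals, for Tgfb2 (chr1:186705990-186706239, minus strand) and Tgfbr2 (chr9:116175364-116175613, minus strand).
Tgfb2: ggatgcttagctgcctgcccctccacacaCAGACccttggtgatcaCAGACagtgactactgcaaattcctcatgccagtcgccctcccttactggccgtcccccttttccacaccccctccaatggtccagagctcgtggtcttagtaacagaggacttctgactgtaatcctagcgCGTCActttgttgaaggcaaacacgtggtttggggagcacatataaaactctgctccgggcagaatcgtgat
Tgfbr2: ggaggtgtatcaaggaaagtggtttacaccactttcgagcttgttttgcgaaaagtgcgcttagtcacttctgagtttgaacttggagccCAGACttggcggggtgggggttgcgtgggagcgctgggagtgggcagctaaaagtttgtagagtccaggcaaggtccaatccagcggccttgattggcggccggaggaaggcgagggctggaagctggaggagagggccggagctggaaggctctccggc
The 250 bases before Tgfb2 held 1 CRE half-site, read as CGTCA 72 bases before the start, and SMAD boxes 221 and 204 bases before it. Those before Tgfbr2 held no CRE half-site and 1 SMAD box, 160 bases before the start. Of the other genes, Tgfbi held SMAD boxes 239 and 85 bases before its start and 1 of 2 Tgfbr1 starts held 1 at 203 bases, while Tgfb1, Inhba and Inhbb held neither motif. Among 32851 promoter windows of the same length 17.8% held the CRE half-site and 42.2% the SMAD box, so either motif is common by its letters alone. A match describes the sequence and says nothing of binding in these cells.

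Across the 12 libraries, the genes outside the family with the pattern most like that of Tgfb2 were Colec12, a scavenger receptor of the collectin family, Tle2, a transcriptional corepressor, and Qpct, an enzyme that forms pyroglutamate at the N-terminus of proteins. Their Pearson correlations with Tgfb2 on the log2 scale were 0.968, 0.967 and 0.963 over 12 libraries, which fall into 4 groups and share their line and treatment. Tle2 had on average 53.6 normalized counts in vector unstimulated, 127 in tSema4B unstimulated, 27.8 in vector NE and 61.7 in tSema4B NE libraries, highest in tSema4B unstimulated and lowest in vector NE libraries as Tgfb2 was. Colec12 had 537, 978, 413 and 664, and Qpct 262, 486, 181 and 306, in that order.

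Other genes of the pathway were read from a list of 56 symbols that covers activin receptors, latency and activation factors, extracellular inhibitors, SMADs and their partners, and targets. Of these 53 were in the table and 41 were tested. In tSema4B against vector 8 were higher and 2 lower without stimulation (5.64% and 7.39% of all genes tested), and 9 higher and 1 lower after NE (9.79% and 11.2%), with medians of 0.10 and 0.29 on the log2 scale beside -0.0025 and -0.010 over all genes tested. After NE 3 were higher and 2 lower in vector cells (6.82% and 4.78% of all genes tested), and 3 higher and 4 lower in tSema4B cells (3.68% and 2.58%), with medians of -0.035 and 0.021 beside -0.019 and -0.0048. For the interaction 0 of 41 passed with limma or edgeR, 3 had an unadjusted p under 0.05 with limma, and DESeq2 gave an adjusted p for 9, of which 0 passed.

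Among the factors that hold latent TGF-β, Lrrc32 (also called GARP), which tethers it to the cell surface, had 3.26, 10.9 and 4.36 normalized counts in vector unstimulated (3, 13 and 4 reads), 25.0, 54.1 and 31.5 in tSema4B unstimulated, 139, 75.3 and 120.5 in vector NE and 143, 150.5 and 289 in tSema4B NE libraries. Without stimulation every tSema4B library exceeded every vector library, and NE libraries lay above unstimulated ones in both lines, without overlap. The log2 fold change was 2.47 in tSema4B against vector without stimulation (SE 0.386, adjusted p = 9.01e-05), and it rose after NE by 4.07 in vector cells (adjusted p = 3.39e-07) and 2.36 in tSema4B cells (adjusted p = 0.000419). After NE the difference between the lines was 0.76 (SE 0.386) and did not pass (adjusted p = 0.176). Over the 16 alternatives the difference without stimulation ran from 1.52 (pseudocount of 10) to 2.91 (without vector unstimulated replicate 2), and the NE difference in vector cells from 2.90 to 4.51 with the same settings. Ltbp1, a latent TGF-β binding protein of the matrix, rose after NE by 0.74 in vector cells (SE 0.164, adjusted p = 0.00433) and by 1.02 in tSema4B cells (adjusted p = 0.00034). Ltbp1 was also higher in the tSema4B line, by 0.49 without stimulation, where 9 of 16 alternatives lost the call (adjusted p = 0.0498, up to 0.202), among them a replicate block (0.0572) and leaving out any vector unstimulated replicate or tSema4B unstimulated replicate 1 or 2, and by 0.77 after NE (adjusted p = 0.00171). Ltbp2, of the same gene family, fell after NE in tSema4B cells by 0.91 (SE 0.223, adjusted p = 0.0148). That call was lost without tSema4B unstimulated replicate 2 (0.0783) or tSema4B NE replicate 2 (0.0642). Between the lines, its differences of 0.67 without stimulation (adjusted p = 0.052) and 0.21 after NE (adjusted p = 0.555) did not pass. Whether the Ltbp2 protein holds latent TGF-β was not tested. In vector cells the NE difference of Ltbp2 (-0.46, adjusted p = 0.218) did not pass, and its interaction (-0.46, adjusted p = 0.67) did not either. Ltbp4 was higher in tSema4B after NE by 0.67 (SE 0.188, adjusted p = 0.0141), which was lost without tSema4B NE replicate 2 (0.1). Without stimulation its difference of 0.49 did not pass (adjusted p = 0.0956). Thbs1, thrombospondin 1, which can release active TGF-β, had 517 to 616 normalized counts in vector unstimulated and 1038 to 1100.1 in tSema4B unstimulated libraries. It was higher by 0.93 (SE 0.154, adjusted p = 0.000183), fell after NE in tSema4B cells by 0.89 (adjusted p = 0.000715), and had 328 to 640 in vector NE and 523 to 620 in tSema4B NE libraries. Between the lines after NE the difference of 0.32 in Thbs1 did not pass (adjusted p = 0.155). Neither did its NE difference in vector cells (-0.28, adjusted p = 0.284) or its interaction (-0.61, adjusted p = 0.319). Itgav, the integrin αv chain, was higher in the tSema4B line by 0.49 (adjusted p = 0.0101) and 0.53 after NE (adjusted p = 0.00393).

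**Figure D4:**
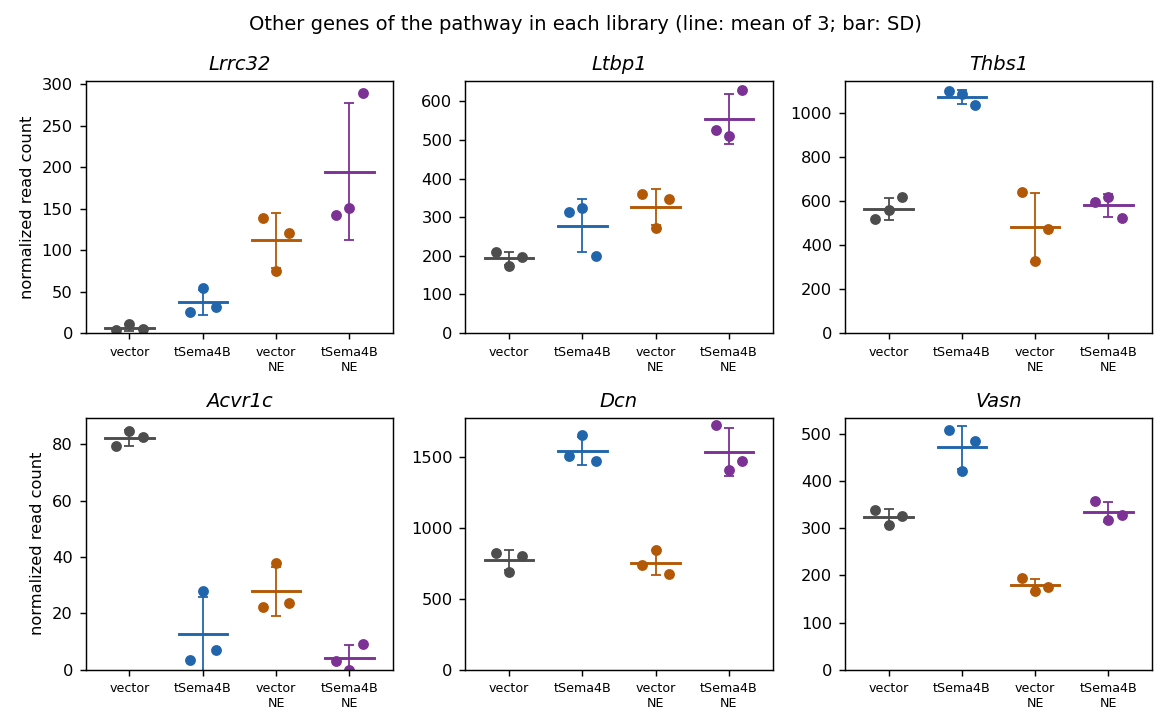
Normalized read counts (linear axes starting at 0) of Lrrc32, Ltbp1, Thbs1, Acvr1c, Dcn and Vasn in the 12 libraries, with 1 point for each library, a line at the mean of 3 and a bar for the SD, clipped at 0 for Acvr1c. Lrrc32 and Ltbp1 are higher with NE in both lines, Acvr1c is highest in vector unstimulated libraries (79.3 to 84.9), and Dcn follows the line and not NE. Acvr1c did not pass the test of NE in either line.

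Of the receptors on the list, Acvr1c, the type I receptor ALK7 that adipocytes use for activin-class ligands, had 79.3, 84.9 and 82.8 normalized counts in vector unstimulated and 3.58, 27.8 and 6.85 in tSema4B unstimulated libraries. It was lower in every tSema4B library, by -3.04 on the log2 scale (SE 0.674, adjusted p = 0.00342), and after NE, where tSema4B libraries held 0 to 7 reads and vector libraries 33 to 64, by -3.00 (SE 0.674, adjusted p = 0.0027). On so few reads the size depends on the setting, and over the 16 alternatives it ran from -3.80 (without tSema4B unstimulated replicate 2) to -2.17 (pseudocount of 10) without stimulation, and after NE from -3.77 (without tSema4B NE replicate 3) to -1.45 (pseudocount of 10), with -2.10 without tSema4B NE replicate 2, all past the test. All 8 adipocyte markers were lower in the same comparisons (median log2 fold change -2.50 and -2.05), and their part in the result was not tested. The NE differences of Acvr1c, -1.57 in vector (SE 0.674, adjusted p = 0.152) and -1.53 in tSema4B cells (adjusted p = 0.201), did not pass. Eng, the co-receptor endoglin, was lower by -2.23 without stimulation (SE 0.600, adjusted p = 0.0148), with 1 to 4 reads in tSema4B and 11 to 25 in vector libraries, and from -2.54 to -1.12 over the alternatives. That call was lost with no filter (adjusted p = 0.0543) and without vector unstimulated replicate 2 (0.0589) or 3 (0.0766) or tSema4B unstimulated replicate 2 (0.0613). After NE the difference of Eng was -0.77 (SE 0.600) and did not pass (adjusted p = 0.4).

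Of the genes for proteins that bind or trap ligands, Dcn (decorin), which is also on the preadipocyte marker list, rose in the tSema4B line by 1.00 without stimulation (SE 0.102, adjusted p = 2.73e-07) and 1.03 after NE (adjusted p = 2.21e-07). Vasn (vasorin), a membrane protein that binds TGF-β, was higher in the tSema4B line by 0.54 (SE 0.121, adjusted p = 0.00378) and by 0.90 after NE (adjusted p = 1.23e-05), and fell with NE by 0.85 in vector (adjusted p = 5.64e-05) and 0.49 in tSema4B cells (adjusted p = 0.0149). Fst (follistatin) and Fstl3, which trap activins, did not pass between the lines without stimulation (adjusted p = 0.994 and 0.298) or after NE (0.595 and 0.434), while Fstl1 (follistatin-like 1) was higher in the tSema4B line by 0.54 (adjusted p = 4.14e-05) and 0.67 (adjusted p = 2.25e-06). Of the genes TGF-β is known to induce, Ctgf (adjusted p = 0.287 and 0.134 between the lines), Pmepa1 (0.15 and 0.121) and Skil (0.938 and 0.475) passed in no comparison. Cdkn2b, the cell cycle inhibitor p15, another such gene, did pass, higher in tSema4B by 0.89 (SE 0.117, adjusted p = 1.07e-05) and 0.78 (adjusted p = 4.41e-05) and lower after NE by 0.47 (adjusted p = 0.00993) and 0.58 (adjusted p = 0.00318). Tgfb1i1, also on the list, was higher in tSema4B after NE by 0.84 (SE 0.209, adjusted p = 0.0061), in all 16 alternatives too. Its difference of 0.61 without stimulation did not pass (adjusted p = 0.0562). The fall of Cdkn2b in vector cells was lost without vector unstimulated replicate 1 (adjusted p = 0.0639) or vector NE replicate 1 (0.0525) or 3 (0.0626), and that of Vasn in tSema4B cells without tSema4B unstimulated replicate 1 (0.0702) or 3 (0.0501) or tSema4B NE replicate 2 (0.0584). Of the SMADs and their partners, Smad3 was higher in tSema4B cells after NE by 0.90 (SE 0.163, adjusted p = 0.000376), while the difference of 0.46 without stimulation did not pass (adjusted p = 0.069), and Smad2 and Smad4 passed in no comparison. Tgif1, a corepressor of SMADs, rose after NE by 0.69 in vector (SE 0.156, adjusted p = 0.00534) and 0.62 in tSema4B cells (adjusted p = 0.0173), the latter lost without tSema4B unstimulated replicate 2 (0.061), without tSema4B NE replicate 2 (0.0849) and with only the 2 groups fitted (0.0709). Genes of the list beyond Lrrc32, Acvr1c, Eng, Dcn and Ltbp1 were named after their values were seen.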

How the data were processed

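RNAseq libraries of 12 samples were grouped by their labels, and every column of values was used. The authors made SMART-Seq2 cDNA and Nextera XT libraries, aligned the reads to the mouse genome with STAR 2.7.9a, counted them per gene with HTSeq and divided them by DESeq2 size factors. The signal the authors deposited is thus a normalized count. All non-zero values were whole multiples of 1 read (tolerance 0.01), so whole reads were recovered. The annotation version and strand setting are not given in the sources used here, and positions and exon lengths are from GENCODE on GRCm38. Exon length covers all annotated exons of a gene, whether or not these cells use each transcript.

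Values were tested as log2(normalized count + 1) with limma 3.58.1 in R 4.3.3, with a variance trend, on the 11998 genes that reached 10 normalized counts in 3 or more libraries. One model held all 4 groups, and two-sided p-values were adjusted by Benjamini-Hochberg over these genes. A gene passed at an adjusted p of 0.05 or less. The fit was tested on simulated data. Alternatives changed the pseudocount (0.5, 10), filter (none, 50), scaling, threshold, libraries fitted or replicate block, or used edgeR 4.0.16 or DESeq2 1.42.0 on whole reads, or left out 1 library. The members and lists were chosen with earlier results of these data known. Named were the 10 members, of the other pathway genes the 3 with the largest log2 fold change in size per comparison among those past both thresholds, and the 3 genes most correlated with each of up to 2 members past both. Further pathway genes were named after their values were seen.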

Additional observations from a re-analysis of the deposited data

How the results depend on the processing

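The number of the 10 genes past the test moved with the threshold, single libraries, the scaling, the filter, the libraries fitted and the tool. By edgeR and by DESeq2 it was 3 for tSema4B against vector after NE, against 2 by limma. When a log2 fold change of 1 or more in size was also asked for, it went from 2 to 1 (tSema4B against vector, unstimulated), 2 to 0 (the same after NE), 3 to 0 (NE in vector) and 3 to 1 (NE in tSema4B). With no filter it was 1 for tSema4B against vector without stimulation, in a fit of only the 2 groups compared it was 1 there and 1 for NE in tSema4B cells, and with libraries rescaled to the same total it was 4 for tSema4B against vector after NE. The causes were not tested. With 1 library left out at a time it ran from 1 to 2, 2 to 3, 0 to 2 and 1 to 3 in these 4 comparisons, and a group then held 2 libraries. The 0 was reached without vector NE replicate 2. The interaction stayed at 0 in every alternative run, though DESeq2 gave an adjusted p for only 3 of the 10. With a replicate block it was 2, 2, 3, 3 and 0. Same-numbered libraries had correlations of -0.047 to 0.028 over 18 pairs, 0 of them over 0.1, so the numbers were not taken to pair the libraries, and the block moved no count of these 10 genes. Of 29 log2 fold changes at least as large as their SE, 0 turned sign in any alternative, and of the 10 past the test 6 lost the call in at least 1. The 21 smaller than their SE turned sign in 15 cases and are not given as differences. Under the second condition, the other pathway genes past the test went from 10 to 4, 10 to 2, 5 to 1 and 7 to 2, and without tSema4B NE replicate 2 the last went to 4. Tgfb1, Smad7, Inhba and Inhbb rest on few reads, 3 to 59 in a library, and depth was not separated from the spread between libraries.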
